A study of Mus musculus with 44 samples.

Results

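Gene expression late in the light phase (ZT9) and late in the dark phase (ZT21) was compared in lymph node cells of tumour-injected Bmal1ΔcDC mice, in which the clock gene Bmal1 is floxed and a cre is driven by *Clec9a*. The comparison used 6 of the 44 libraries of the series, 3 at each timepoint, chosen by the genotype and timepoint in their labels and not by any measured value. ZT, or zeitgeber time, counts the hours from lights on in a day of 12 h of light and 12 h of darkness. The cells were sorted as CD45+CD11c+MHCIIhigh from the draining inguinal lymph node 24 h after B16-F10-OVA cells, a mouse melanoma line that expresses ovalbumin, were injected under the skin, and each library came from 1 mouse. Bmal1ΔcDC mice carried *Clec9a*-cre on 1 allele and the floxed Bmal1 allele on both, and 3 of them were sampled at each timepoint, ZT3, ZT9, ZT15 or ZT21. The same cells were taken from tumour-injected control mice, labelled WT, with 5 at each timepoint. They were also taken from sham mice, described as WT in the study and injected with PBS, with 3 at each timepoint. All mice were females of 8 to 12 weeks. The cre acts in cells of the conventional dendritic cell lineage, so other cells that enter the sorting gate keep Bmal1.

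BMAL1, the product of *Arntl*, pairs with CLOCK and drives the *Per*, *Cry* and *Nr1d* repressor genes, whose products act back on the pair and on *Arntl* itself, and the loop turns over about once a day. Dendritic cells that reach a draining lymph node from the skin have raised their MHC class II and co-stimulatory molecules on the way, and there they present antigen to T cells. CD80 and CD86, which bind CD28 on T cells, are the best known of these co-stimulatory molecules.

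Values are the deposited CPM, read counts per gene scaled to a library total of 1000000. The 6 libraries held 32101637 to 44381104 reads on genes, which makes 1 CPM a median of 36.6 reads. The transcripts of *Fscn1* (4869 to 5980 CPM over the 6 libraries), *Ccr7* (5243 to 6822 CPM) and *Ccl22* (3976 to 6427 CPM), which mark dendritic cells that have migrated, were abundant in all 6. *Clec9a* itself, a marker of the cDC1 subset and the source of the cre promoter, was at 0.0917 to 1.53 CPM at ZT9 and 0 to 0.592 CPM at ZT21. The library ZT21 replicate 1 stood apart: 911 of the tested genes were listed at 0 in it, against 182 to 553 in the other 5. Values without it are given beside several genes and lists.

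For each gene, the difference is ZT9 minus ZT21 on the log2(CPM + 0.5) scale, so that a negative value is a higher level at ZT21. This scale understates the difference for genes of few CPM. A model over the 12 libraries labelled Bmal1ΔcDC was fitted with limma to 11963 genes that reached 1 CPM in at least 5 of the 44 libraries. A gene passed where the difference was at least 2-fold and the Benjamini-Hochberg adjusted p was below 0.05. Each p given for a single gene is the 2-sided limma p adjusted over all genes tested. Counts of genes below 0.05, counts of list members higher at a timepoint, and statements that a gene was or was not below 0.05, use the unadjusted limma p, beside the share of all genes below it, and such genes are described by their values. Values of *Cry2*, *Dbp*, *Tctn1*, *Serpinb1b*, *Clec2d*, *Zfp964*, *Clec10a*, *Mgl2*, *Klrb1c*, *Lyz2*, *Scd1*, *H2-Eb1*, *H2-DMb2*, *Psme2*, *Ccr2*, *Dnaja1*, *Pfkp*, *Tsc2*, *Rbm3*, *Mrps6*, *Fdft1* and *Itgax* were not whole reads in 52.3 to 100% of the 44 libraries, and how reads shared with other genes were counted for them was not tested.

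*Arntl*, the gene the deletion targets, was at 18.4, 11.5 and 16.8 CPM at ZT9 and 37.99, 24.5 and 17.6 CPM at ZT21. The libraries overlapped between the timepoints, since ZT21 replicate 3 lay within the ZT9 range, and ZT21 replicate 1 was the highest. Mean levels were 15.5 ± 3.64 CPM at ZT9 and 26.7 ± 10.4 CPM at ZT21 (SD, n = 3). The difference was −0.72 (SE 0.31, adjusted p = 0.444) by limma, and without ZT21 replicate 1 it was −0.43 (adjusted p = 0.753) and not below 0.05. Control libraries held 12.7 to 17.3 CPM at ZT9 and 13.0 to 20.3 CPM at ZT21, a range that overlapped the libraries labelled Bmal1ΔcDC at both timepoints. The totals count reads anywhere in the gene and do not show whether the floxed exon was present, and the deletion could not be checked from them.

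The clock list held 18 tested genes, of which *Arntl* was the only one below an unadjusted p of 0.05 (8.89% of all genes were higher at ZT21), none was with median-of-ratios scaling, and the list median difference was −0.05. *Arntl* was below it in 6 of the 12 leave-outs of 1 library. Without ZT21 replicate 3, 1 member was higher at ZT9 (615 of all 11963 genes). *Ciart*, a repressor of the CLOCK–BMAL1 pair, was at 2.49, 2.26 and 2.51 CPM at ZT9 and 1.001, 0.676 and 2.68 CPM at ZT21. Its difference was 0.72 (SE 0.38, adjusted p = 0.487), and the libraries overlapped because ZT21 replicate 3 exceeded all of ZT9. *Dbp*, a D-box transcription factor and direct CLOCK–BMAL1 target, was at 27.2, 35.3 and 30.2 CPM at ZT9 and 25.7, 27.8 and 26.9 CPM at ZT21, with a difference of 0.19 (SE 0.18, adjusted p = 0.688). *Nr1d1*, which encodes the repressor REV-ERBα, was at 4.602, 2.96 and 5.24 CPM at ZT9 and 3.42, 2.21 and 4.02 CPM at ZT21, with adjusted p = 0.686. The repressor *Per1* was at 11.3, 5.56 and 12.3 CPM at ZT9 and 8.92, 5.81 and 15.3 CPM at ZT21 (adjusted p = 0.994), and *Per2* at 5.52, 1.47 and 1.97 CPM at ZT9 and 2.21, 4.91 and 5.54 CPM at ZT21 (adjusted p = 0.714). For the other period and cryptochrome genes the differences were −0.09 for *Per3*, −0.11 for *Cry1* and −0.14 for *Cry2*, with adjusted p of 0.956, 0.872 and 0.891. The remaining members spanned low and high levels. *Clock* differed by −0.12 (adjusted p = 0.892), *Npas2*, its paralogue, by 0.54 (adjusted p = 0.707), *Nr1d2* by 0.04 (adjusted p = 0.975), and the activator *Rora* by 0.09 (adjusted p = 0.937). Among the output factors, *Tef* differed by 0.13 (adjusted p = 0.872), *Hlf* by 0.39 (adjusted p = 0.871), *Nfil3* by −0.16 (adjusted p = 0.822) and *Bhlhe40* by −0.21 (adjusted p = 0.709). In control mice, 4 of the same 18 genes were higher at ZT9 at an unadjusted p below 0.05 and none was lower (6.44% and 5.02% of all genes), with *Dbp* at 0.39 (adjusted p = 0.315) and *Tef* at 0.48 (adjusted p = 0.434).

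**Figure D1:**
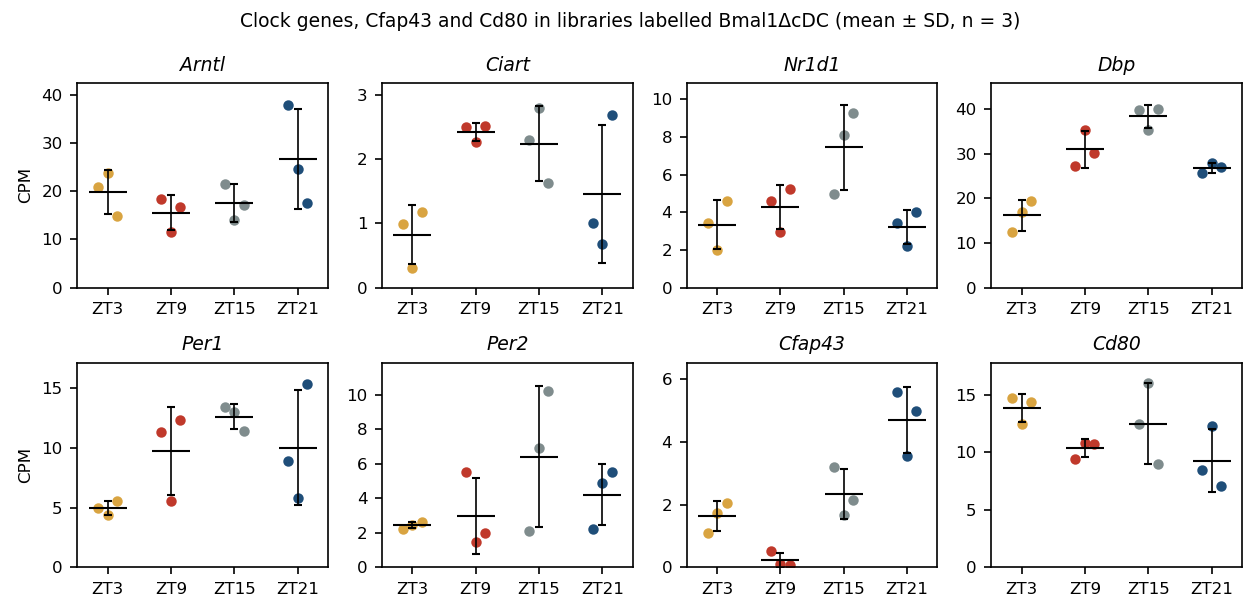
CPM of 6 clock genes, *Cfap43* and *Cd80* in the 12 libraries labelled Bmal1ΔcDC by zeitgeber time, with each point a library and the line and bars the mean ± SD (n = 3). *Cfap43* stayed at or below 0.508 CPM at ZT9 and at or above 3.54 CPM at ZT21, while the ZT9 and ZT21 points overlapped for the other 7 genes.

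Of the 11963 genes tested, 1 passed both thresholds (0.00836%). This was *Cfap43*, a protein of motile cilia and sperm flagella (chromosome 19, 47736857 to 47837454), and it was lower at ZT9. Its level was 0.508, 0.122 and 0.0712 CPM at ZT9 and 5.57, 3.54 and 4.98 CPM at ZT21, with no overlap. That is 0.234 ± 0.239 CPM at ZT9 and 4.696 ± 1.04 CPM at ZT21 (SD, n = 3), with 1.63 CPM at ZT3 and 2.33 CPM at ZT15. By limma the difference was −2.85 (SE 0.29, adjusted p = 0.0207), or 7.21-fold on the scale with the pseudocount. The call depended on single libraries: when each of the 12 was left out in turn, its adjusted p ranged from 0.0156 to 0.192 and was below 0.05 in 5. It was also lost with a replicate block, with an intensity trend and with only the ZT9 and ZT21 libraries, where no gene passed both thresholds. No gene passed without ZT3 replicate 2, ZT9 replicate 2, ZT9 replicate 3, ZT15 replicate 3, ZT21 replicate 2 or ZT21 replicate 3, and 3 passed without ZT3 replicate 1. Without ZT21 replicate 1, *Cfap43* had an adjusted p of 0.0924 and the 1 gene past both thresholds was *Gm4724* (−3.38, adjusted p = 2.70e-04), a predicted gene chosen here after its values were seen. The other 11 tested genes of motile cilia included none below an unadjusted p of 0.05. Over all 12, 1 was higher at ZT9 and 1 at ZT21 with median-of-ratios scaling (5.0% and 5.14% of all genes). Without ZT21 replicate 1, 2 of the 12 were higher at ZT21 (6.45% of all genes). *Dnah2*, an axonemal dynein, had 0.59 (SE 0.31, adjusted p = 0.486), *Ccdc40* had −1.005 (SE 0.47, adjusted p = 0.462) and *Cfap20* had −0.43 (SE 0.20, adjusted p = 0.456).

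At an unadjusted p below 0.05 there were 1308 genes (10.9%), of which 245 were higher at ZT9 (2.05%) and 1063 higher at ZT21 (8.89%). The median difference over all genes was −0.12 with the deposited scaling. When libraries were rescaled by the median of ratios, which sets that median near 0, 1213 genes were below 0.05 (10.1%), 598 of them higher at ZT9 (5.0%) and 615 at ZT21 (5.14%), so the split between directions depended on the scaling. On leaving out ZT21 replicate 1 the counts were 164 and 772 (1.37% and 6.45%). The number higher at ZT9 was 385 on leaving out ZT21 replicate 2 and 615 on leaving out ZT21 replicate 3, and the number higher at ZT21 was 692 without ZT9 replicate 2. All 3 libraries at ZT9 lay above all 3 at ZT21 for 442 genes (3.69%), and below them for 1407 (11.8%). For a single gene an exact permutation test of 3 against 3 libraries cannot give a p below 0.1. In control mice, 8 genes passed both thresholds (0.0669%) and 1371 had an unadjusted p below 0.05 (11.5%), 771 of them higher at ZT9 (6.44%) and 600 at ZT21 (5.02%). In sham mice no gene passed both by limma (0.00%), and 637 had an unadjusted p below 0.05 (5.32%), 432 higher at ZT9 (3.61%) and 205 at ZT21 (1.71%).

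The genes with the largest differences were taken from those with an unadjusted p below 0.01, at least 5 CPM at the higher timepoint and no overlap between libraries, which held 29 genes higher at ZT9 and 239 higher at ZT21. None passed the adjusted threshold, and for each of those named below the unadjusted p stayed below 0.05 whichever 1 of the 12 libraries was left out. Since they were chosen for a small p and no overlap in these same libraries, that is not a separate test of the differences. Higher at ZT9 was *Gm14434*, a predicted gene whose values were not whole reads in 36.4% of the 44 libraries (chromosome 2, 176470369 to 176486853), at 10.4, 9.03 and 4.15 CPM at ZT9 and 0 CPM in each of the 3 libraries at ZT21. No fold is given for it, because its fitted difference depends on the pseudocount. *Map6*, which stabilises microtubules, was at 4.14, 5.84 and 5.599 CPM at ZT9 and 0, 0.586 and 1.84 CPM at ZT21, with a difference of 2.38 (SE 0.52, adjusted p = 0.206). Both genes were near or at 0 at ZT21. *Tctn1*, a protein of the ciliary transition zone, was at 7.62, 3.69 and 5.201 CPM at ZT9 and 0.255, 2.63 and 0.827 CPM at ZT21 (1.98, adjusted p = 0.2402). *Mylk*, the myosin light chain kinase, was at 2.95, 4.74 and 9.87 CPM at ZT9 and 0.442, 1.33 and 2.87 CPM at ZT21 (1.67, adjusted p = 0.332). These 4 were transcripts of few CPM.

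*Emd*, which encodes the inner nuclear membrane protein emerin, was at 113, 129 and 113 CPM at ZT9 and 21.1, 73.1 and 40.4 CPM at ZT21. Its means were 118 ± 9.04 CPM at ZT9 and 44.9 ± 26.3 CPM at ZT21 (SD, n = 3), and the difference was 1.56 (SE 0.35, adjusted p = 0.217). Without ZT21 replicate 1, the lowest library, the difference was 1.11 (adjusted p = 0.351), and in control mice it was 0.04 (adjusted p = 0.932). *Rab5c*, a small GTPase of early endosomes, was at 43.6, 49.9 and 45.7 CPM at ZT9 and 7.86, 29.1 and 25.5 CPM at ZT21, with a difference of 1.33 (SE 0.39, adjusted p = 0.307) that was 0.76 without ZT21 replicate 1. *Sema7a*, a membrane-anchored semaphorin, was at 39.97, 34.3 and 26.8 CPM at ZT9 and 8.16, 22.6 and 11.7 CPM at ZT21 (1.32, adjusted p = 0.224), and without ZT21 replicate 1 the difference was 1.01. For all 3 genes ZT21 replicate 1 was the lowest library, and the remaining ZT21 libraries also stayed below ZT9. *Paip2b*, an inhibitor of the poly(A)-binding protein, was at 32.6, 28.2 and 29.5 CPM at ZT9 and 6.77, 22.4 and 13.7 CPM at ZT21 (1.197, adjusted p = 0.2898), or 0.76 without ZT21 replicate 1. *Serpinb1b*, a serine protease inhibitor, was at 7.86, 14.8 and 11.3 CPM at ZT9 and 3.04, 6.76 and 4.41 CPM at ZT21 (1.19, adjusted p = 0.217). *Clec2d*, the ligand of the NK receptor NKR-P1D, was at 48.9, 58.8 and 37.8 CPM at ZT9 and 14.99, 27.7 and 23.5 CPM at ZT21 (1.14, adjusted p = 0.226). The helicase gene *Ercc6l2*, of DNA repair, was at 12.2, 10.4 and 10.2 CPM at ZT9 and 5.62, 5.16 and 4.33 CPM at ZT21. Its difference was 1.05 (SE 0.18, adjusted p = 0.134). *Tctn1*, *Serpinb1b* and *Clec2d* had values that were not whole reads in 93.2% or more of the 44 libraries, so reads shared with other genes may be split among them.

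Higher at ZT21 were *Zfp420* and *Zfp964*, zinc-finger genes, at 1.04, 0.0611 and 1.95 CPM at ZT9 and 15.7, 2.46 and 7.82 CPM at ZT21 for the former and 0, 0.734 and 0.476 CPM at ZT9 and 12.3, 3.03 and 1.603 CPM at ZT21 for the latter (−2.52, adjusted p = 0.307 and −2.44, adjusted p = 0.2898). Their differences without ZT21 replicate 1, the highest library of both, were −1.95 and −1.69. *Dmpk*, the myotonic dystrophy kinase, was at 0, 0.458 and 3.84 CPM at ZT9 and 5.45, 5.93 and 5.08 CPM at ZT21 (−2.23, adjusted p = 0.344), and ZT9 replicate 3 came close to ZT21. *Adamts10*, an extracellular metalloprotease, was at 3.25, 0.825 and 0.237 CPM at ZT9 and 6.92, 6.87 and 6.11 CPM at ZT21 (−2.21, adjusted p = 0.259). *Itpr1*, a channel that releases calcium from the endoplasmic reticulum, was at 1.55, 1.47 and 1.12 CPM at ZT9 and 10.9, 9.33 and 4.83 CPM at ZT21, or 1.38 ± 0.231 CPM at ZT9 and 8.34 ± 3.14 CPM at ZT21 (SD, n = 3). Its difference was −2.17 (SE 0.38, adjusted p = 0.134), and ZT3 (6.85 CPM) and ZT15 (9.16 CPM) were both above ZT9. *Gas6*, the ligand of the TAM receptors that mediate uptake of dying cells, was at 0.0508, 2.05 and 1.14 CPM at ZT9 and 8.92, 4.55 and 3.43 CPM at ZT21 (−2.11, adjusted p = 0.2698). *Slc25a53*, a mitochondrial carrier, was at 0.864, 1.47 and 1.76 CPM at ZT9 and 10.7, 3.49 and 6.45 CPM at ZT21 (−1.89, adjusted p = 0.206). *Klhl42*, an adaptor for a ubiquitin ligase, was at 7.86, 0.764 and 4.41 CPM at ZT9 and 11.3, 12.4 and 16.7 CPM at ZT21 (−1.89, adjusted p = 0.2898), and *Scml4*, a Polycomb-family gene, at 3.33, 0.611 and 3.44 CPM at ZT9 and 6.77, 10.1 and 10.3 CPM at ZT21 (−1.88, adjusted p = 0.256). *Slc12a7*, a potassium–chloride cotransporter, was at 8.77, 4.13 and 13.5 CPM at ZT9 and 38.99, 13.9 and 34.5 CPM at ZT21 (−1.68, adjusted p = 0.281). *Il22*, a cytokine made by T cells and innate lymphoid cells, was at 4.33, 3.78 and 4.72 CPM at ZT9 and 12.01, 13.6 and 19.9 CPM at ZT21. Its means were 4.28 ± 0.474 CPM at ZT9 and 15.2 ± 4.19 CPM at ZT21 (SD, n = 3) and its difference was −1.69 (SE 0.32, adjusted p = 0.1795). The T cell marker genes *Cd3e*, *Cd28* and *Lck* were also at their highest in ZT21 replicate 3, the library with most *Il22*, and the part of T cells in the *Il22* difference was not tested. In bulk RNA such as this, more cells of a type and more RNA per cell cannot be told apart.

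Of 24 genes of cholesterol synthesis tested, 9 were higher at ZT9 at an unadjusted p below 0.05 and none was higher at ZT21, where 2.05% and 8.89% of all genes were. All 24 differences were above 0, from 0.06 to 1.23, and their median was 0.46, against −0.12 over all genes. The median was 0.59 with median-of-ratios scaling, with 13 members below 0.05, and 0.64 without ZT21 replicate 1, with 12. Of all genes, 5.0% and 1.37% were higher at ZT9 in those settings. The count was lowest, at 5, on leaving out ZT9 replicate 3 (median 0.31) or ZT21 replicate 3 (median 0.37). In those leave-outs 186 and 615 of all 11963 genes were higher at ZT9. No leave-out put a member higher at ZT21 below 0.05. No member passed the adjusted threshold. These enzymes turn acetyl-CoA into cholesterol through mevalonate and squalene, and the transcription factor SREBP2, product of *Srebf2*, drives their genes when membrane sterol is low.

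In the mevalonate steps, *Mvk*, mevalonate kinase, was at 27.5, 22.2 and 22.8 CPM at ZT9 and 11.7, 14.8 and 8.57 CPM at ZT21. Its means were 24.2 ± 2.93 CPM at ZT9 and 11.7 ± 3.14 CPM at ZT21 (SD, n = 3), and the difference was 1.04 (SE 0.25, adjusted p = 0.217). *Fdps*, which makes farnesyl pyrophosphate, was at 252, 209.8 and 275 CPM at ZT9 and 159, 142 and 99.9 CPM at ZT21, with a difference of 0.89 (SE 0.22, adjusted p = 0.236). Neither gene overlapped between the timepoints. *Mvd*, the decarboxylase between them, was at 109, 77.2 and 112 CPM at ZT9 and 81.4, 67.8 and 38.8 CPM at ZT21, with a difference of 0.71 (SE 0.26, adjusted p = 0.406) and an overlap at ZT21 replicate 1. In the steps after squalene, *Sc5d*, a sterol desaturase, was at 136, 111 and 145 CPM at ZT9 and 85.9, 93.5 and 98.001 CPM at ZT21, with a difference of 0.49 (SE 0.16, adjusted p = 0.355), and *Msmo1*, a sterol methyl oxidase, at 190.2, 198 and 212 CPM at ZT9 and 187, 136 and 106 CPM at ZT21, with a difference of 0.52 (SE 0.20, adjusted p = 0.416). Both were without overlap, although ZT21 replicate 1 came within a few CPM of ZT9 for *Msmo1*. *Fdft1*, squalene synthase, was at 173, 181 and 221 CPM at ZT9 and 187, 116 and 104 CPM at ZT21, with a difference of 0.54 (SE 0.22, adjusted p = 0.429), and overlapped through ZT21 replicate 1. *Stard4*, a carrier that moves sterol between membranes, was at 28.3, 16.8 and 26.1 CPM at ZT9 and 10.3, 12.2 and 11.6 CPM at ZT21, with a difference of 0.999 (SE 0.29, adjusted p = 0.2898). *Insig1*, which holds SREBP2 in the endoplasmic reticulum when sterol is plentiful, was at 59.1, 49.7 and 87.1 CPM at ZT9 and 47.6, 43.3 and 26.9 CPM at ZT21, with a difference of 0.73 (SE 0.25, adjusted p = 0.384). For both, every ZT9 library lay above every ZT21 library.

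Other members did not reach an unadjusted p of 0.05. *Sqle*, squalene epoxidase and a rate-limiting enzyme of the pathway, was at 102, 118 and 139 CPM at ZT9 and 115, 74.6 and 80.7 CPM at ZT21, with a difference of 0.43 (SE 0.21, adjusted p = 0.472). *Hmgcs1*, HMG-CoA synthase, had 0.50 (SE 0.28, adjusted p = 0.517), and *Srebf2* had 0.27 (SE 0.20, adjusted p = 0.621). For each of the 3, at least 1 ZT21 library lay inside the ZT9 range. Averaged over the 24 members, the libraries stood at 0.31, 0.08 and 0.48 at ZT9 and 0.04, −0.19 and −0.49 at ZT21, in log2 units relative to the mean of the 12 libraries, without overlap. The medians over the members did overlap, with ZT21 replicate 1 at 0.10 and ZT9 replicate 2 at 0.072, and so did the summed CPM, at 2816 to 3826 at ZT9 and 1903 to 3169.6 at ZT21. Control mice gave 21 of 24 members higher at ZT9 and none higher at ZT21 (6.44% and 5.02% of all genes), with a median of 0.61. Sham mice gave 10 and none (3.61% and 1.71% of all genes), with a median of 0.43. *Insig1* differed by 1.26 in control mice (adjusted p = 1.98e-05), and the knockout difference was −0.53 relative to it (adjusted p = 0.265). It was the only member of the 24 below an unadjusted p of 0.05 in that test of the difference between genotypes with the deposited scaling. Without ZT21 replicate 1 none of the 24 was, and with median-of-ratios scaling 1 was, with its knockout difference above that of control mice.

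Promoters of 4 of these genes are shown because they carry the letters CCAAT, the box bound by NF-Y beside SREBP2 sites in genes of this pathway. Each runs 5′ to 3′ on the strand of the gene, from 250 bases before to 50 after the annotated start, as RefSeq gives it on GRCm38.p6, with CCAAT or its reverse complement ATTGG in capitals. *Mvk* lies on the plus strand (chr5:114444019-114444318), *Sc5d* on the minus strand (chr9:42264251-42264550), *Insig1* on the plus strand (chr5:28071162-28071461) and *Msmo1* on the minus strand (chr8:64733529-64733828).
Mvk: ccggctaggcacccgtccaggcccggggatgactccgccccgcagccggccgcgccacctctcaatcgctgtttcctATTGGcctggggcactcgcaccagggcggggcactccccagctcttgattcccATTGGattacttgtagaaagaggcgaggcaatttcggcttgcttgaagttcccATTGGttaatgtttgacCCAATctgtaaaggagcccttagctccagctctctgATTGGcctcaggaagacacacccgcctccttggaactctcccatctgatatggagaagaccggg
Sc5d: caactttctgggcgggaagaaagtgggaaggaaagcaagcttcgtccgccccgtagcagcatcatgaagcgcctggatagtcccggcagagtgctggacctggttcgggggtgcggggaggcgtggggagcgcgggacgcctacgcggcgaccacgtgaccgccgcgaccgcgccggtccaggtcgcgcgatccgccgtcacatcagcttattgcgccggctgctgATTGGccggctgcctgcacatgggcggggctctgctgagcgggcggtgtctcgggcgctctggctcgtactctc
Insig1: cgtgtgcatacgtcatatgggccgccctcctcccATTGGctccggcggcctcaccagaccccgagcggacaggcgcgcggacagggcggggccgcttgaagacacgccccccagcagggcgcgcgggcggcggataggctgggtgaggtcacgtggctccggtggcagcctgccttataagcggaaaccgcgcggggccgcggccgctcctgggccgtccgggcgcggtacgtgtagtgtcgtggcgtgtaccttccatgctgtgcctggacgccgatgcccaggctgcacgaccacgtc
Msmo1: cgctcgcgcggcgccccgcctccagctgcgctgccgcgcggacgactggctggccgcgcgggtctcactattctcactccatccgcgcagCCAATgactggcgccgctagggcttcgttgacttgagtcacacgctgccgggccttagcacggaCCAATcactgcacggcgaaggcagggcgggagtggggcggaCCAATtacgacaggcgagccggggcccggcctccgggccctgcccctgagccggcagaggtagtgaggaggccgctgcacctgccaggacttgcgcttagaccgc
*Mvk* held 5 matches, *Msmo1* 3, and *Sc5d* and *Insig1* 1 each. Of the 24 members, 17 had a promoter entry and 16 of those held CCAAT on either strand (94.1%), against 42.7% of the 9626 tested genes with an entry and 41.1% of all 27025 promoters. The box was also in 12 of 15 clock promoters (80%) and 13 of 23 heat shock promoters (56.5%), so it was not particular to this list. The sterol regulatory element, searched as TCACNCCAC on both strands, was in 1 of the 17 (5.88%), *Hmgcs1*, against 1.44% of all promoters. A match describes the letters of the window and is not a measured binding site.

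**Figure D2:**
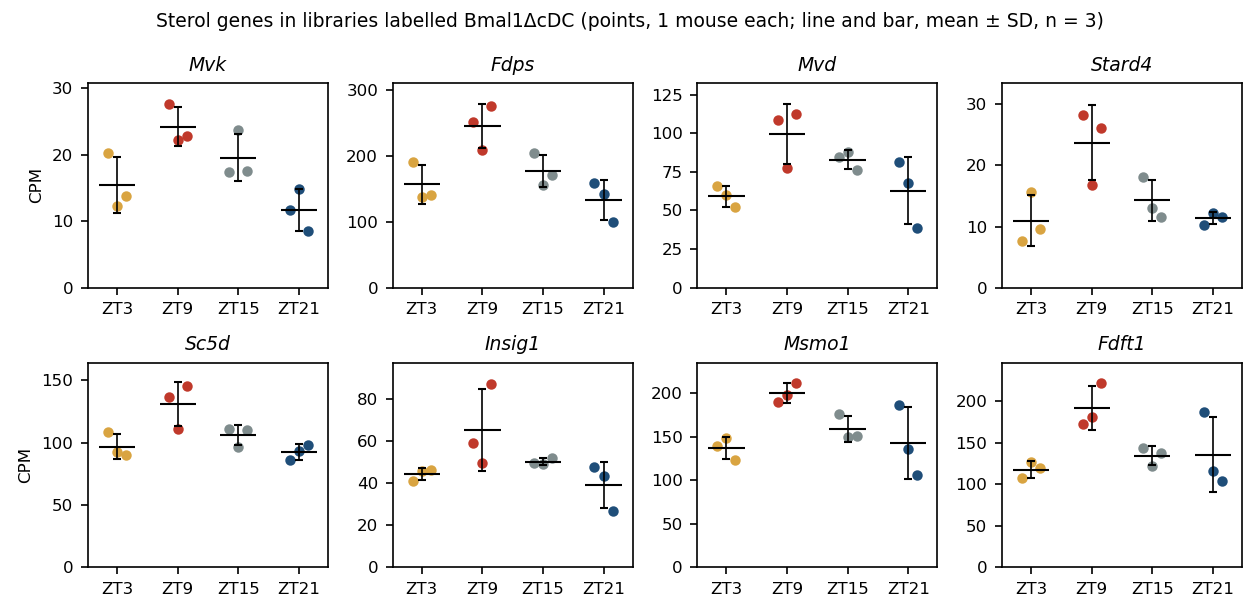
CPM of 8 cholesterol genes in the 12 libraries labelled Bmal1ΔcDC by zeitgeber time, with each point a library and the line and bars the mean ± SD (n = 3). ZT9 points lie above ZT21 points in 6 panels, from 23.7 against 11.4 CPM on average for *Stard4* to 246 against 134 CPM for *Fdps*, and *Mvd* and *Fdft1* overlap.

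The neighbouring lipid lists had few members below 0.05. In sterol efflux, 1 of 10 members had an unadjusted p below 0.05, about the 8.89% of all genes higher at ZT21: *Apoe*, the apolipoprotein that takes up effluxed cholesterol, at 286, 266 and 327 CPM at ZT9 and 437, 507 and 456 CPM at ZT21, with a difference of −0.67 (SE 0.19, adjusted p = 0.287) and no overlap. *Abcg1*, an exporter of cholesterol, had −0.37 (SE 0.18, adjusted p = 0.466), *Abca1* −1.02 (SE 0.72, adjusted p = 0.593) and *Npc2*, which carries cholesterol out of lysosomes, 0.32 (SE 0.19, adjusted p = 0.529). In fatty acid synthesis, 1 of 14 members reached an unadjusted p of 0.05, again about the 8.89% of all genes, and none with median-of-ratios scaling. This was *Fasn*, fatty acid synthase, at 12.8, 25.6 and 30.6 CPM at ZT9 and 71.2, 28.5 and 36.9 CPM at ZT21. Its difference of −0.95 (SE 0.43, adjusted p = 0.455) was −0.58 (adjusted p = 0.763) without ZT21 replicate 1, the highest library, and not below 0.05. *Srebf1*, the regulator of that list, had −0.43 (SE 0.20, adjusted p = 0.466), and *Scd1* and *Elovl5* had −0.86 (adjusted p = 0.504) and −0.25 (adjusted p = 0.593).

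Of 29 chaperone and heat shock response genes tested, 12 were higher at ZT21 at an unadjusted p below 0.05 (8.89% of all genes were) and none at ZT9, and 14 were without overlap, all with ZT21 above (11.8% of all genes). The median difference was −0.29, and 4 of the 29 differences were above 0, up to 0.62. With median-of-ratios scaling 5 were below 0.05 (5.14% of all genes were higher at ZT21) and the median was −0.16. Without ZT21 replicate 1 the count was 12 (6.45% of all genes). It was 7 on leaving out ZT9 replicate 2 or ZT21 replicate 2, where 692 and 1188 of all 11963 genes were higher at ZT21. No member passed the adjusted threshold. Heat shock proteins fold and refold other proteins, and the factor HSF1 drives their genes, which in mice follow the daily rhythm of body temperature in many tissues.

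*Hspd1*, the mitochondrial chaperonin HSP60, was at 110.0, 88.3 and 101 CPM at ZT9 and 194, 157 and 152 CPM at ZT21. Its means were 99.7 ± 10.9 CPM at ZT9 and 167 ± 22.9 CPM at ZT21 (SD, n = 3), and the difference was −0.74 (SE 0.16, adjusted p = 0.202). *Stip1*, which hands clients from HSP70 to HSP90, was at 118, 104 and 112 CPM at ZT9 and 161, 162 and 159 CPM at ZT21, with a difference of −0.53 (SE 0.15, adjusted p = 0.286), and its 3 ZT21 libraries lay close together. *Dnaja1*, an HSP40 co-chaperone, was at 247, 286 and 259 CPM at ZT9 and 339, 403 and 382 CPM at ZT21, with a difference of −0.50 (SE 0.15, adjusted p = 0.2898), and *Fkbp4*, an HSP90 co-chaperone of steroid receptors, at 31.6, 46.2 and 37.1 CPM at ZT9 and 70.5, 64.5 and 55.3 CPM at ZT21, with a difference of −0.73 (SE 0.21, adjusted p = 0.2995). These 4 did not overlap. Abundant members did not overlap either: *Hsp90ab1*, the constitutive HSP90, was at 1002, 886 and 924 CPM at ZT9 and 1217, 1216 and 1329.6 CPM at ZT21 (−0.42, adjusted p = 0.348), and *Hspa8*, the constitutive HSP70, at 1639, 1664 and 1527 CPM at ZT9 and 2133, 2309 and 1919 CPM at ZT21 (−0.39, adjusted p = 0.387). *Dnajb1*, an inducible HSP40, was at 93.5, 81.5 and 94.2 CPM at ZT9 and 107, 136 and 131 CPM at ZT21 (−0.47, adjusted p = 0.377). *Hsf1* itself was at 22.9, 18.5 and 33.6 CPM at ZT9 and 60.8, 34.2 and 39.5 CPM at ZT21 (−0.83, adjusted p = 0.356). *Hspe1*, the partner of HSP60 that shares a promoter region with *Hspd1*, was at 62.01, 86.8 and 66.6 CPM at ZT9 and 49.03, 74.3 and 120.5 CPM at ZT21 (−0.10, adjusted p = 0.917), and its libraries overlapped. Averaged over the 29 members the libraries stood at −0.27, −0.31 and −0.17 at ZT9 and 0.03, 0.13 and 0.05 at ZT21 in log2 units relative to the 12-library mean, without overlap. Means over all genes tested did not overlap either, at −0.11, −0.17 and −0.03 at ZT9 and −0.008, 0.021 and 0.098 at ZT21. In sham mice none of the 29 was higher at ZT21 and 1 was higher at ZT9 (1.71% and 3.61% of all genes), with a median of −0.01. In control mice 15 members were higher at ZT21 and 1 at ZT9 (5.02% and 6.44% of all genes). *Hspd1* differed there by −0.27 (adjusted p = 0.298), and the knockout difference relative to it was −0.47 (adjusted p = 0.194), which did not pass the threshold.

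The promoter of *Hspd1* on the minus strand (chr1:55087883-55088182, RefSeq, GRCm38.p6, 5′ to 3′ on the strand of the gene) is shown because it holds the heat shock element, in capitals. It was searched as TTC, GAA and TTC with any 2 bases between each, and as its reverse complement, GAA, TTC and GAA with the same gaps. Its 2 matches overlap, from −144 and −139 relative to the start.
Hspd1: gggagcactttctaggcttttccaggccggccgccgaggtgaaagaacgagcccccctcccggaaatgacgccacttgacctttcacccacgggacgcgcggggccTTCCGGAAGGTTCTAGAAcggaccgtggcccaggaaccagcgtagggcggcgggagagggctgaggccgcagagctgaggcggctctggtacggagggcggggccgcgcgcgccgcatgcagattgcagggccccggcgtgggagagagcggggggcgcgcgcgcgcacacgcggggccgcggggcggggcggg
The element was in 4 of the 23 members with a promoter entry (17.4%), *Hsph1*, *Hspd1*, *Hspe1* and *Chordc1*, against 0.571% of tested genes with an entry and 0.662% of all promoters. The windows of *Hspd1* and *Hspe1* overlap, so both hold the same letters. Of those 4 genes, *Hspd1* alone was below an unadjusted p of 0.05 between the timepoints.

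In the endoplasmic reticulum, 4 of the 17 tested genes of the unfolded protein response were higher at ZT21 at an unadjusted p below 0.05 and none at ZT9 (8.89% and 2.05% of all genes). These were *Hspa5*, the chaperone BiP, at 481, 452 and 578 CPM at ZT9 and 753, 697 and 579 CPM at ZT21 (−0.42, adjusted p = 0.406), *Hsp90b1*, or GRP94, at 257, 248 and 273 CPM at ZT9 and 416, 316 and 318 CPM at ZT21 (−0.42, adjusted p = 0.406), and the disulfide isomerases *Pdia6* (−0.45, adjusted p = 0.416) and *Pdia4* (−0.56, adjusted p = 0.416). With median-of-ratios scaling none of the 17 was below 0.05, and the same held on leaving out ZT9 replicate 1, ZT9 replicate 2 or ZT21 replicate 1. The count was 2 on leaving out ZT21 replicate 3, where 1095 of all 11963 genes were higher at ZT21.

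Among 30 tested splicing factors and RNA-binding proteins, 2 were higher at ZT9 and 7 higher at ZT21 at an unadjusted p below 0.05 (2.05% and 8.89% of all genes), and the libraries did not overlap for 2 and 13 (3.69% and 11.8% of all genes). The 2 higher at ZT9 were the cold-inducible RNA-binding proteins, which are induced by mild cold. *Rbm3* was at 455, 372 and 438 CPM at ZT9 and 227, 255 and 299.8 CPM at ZT21, or 422 ± 43.6 CPM at ZT9 and 261 ± 36.7 CPM at ZT21 (SD, n = 3), with a difference of 0.70 (SE 0.20, adjusted p = 0.2898). *Cirbp* was at 189.8, 185 and 163 CPM at ZT9 and 109.5, 98.9 and 145 CPM at ZT21, with a difference of 0.62 (SE 0.20, adjusted p = 0.363). Neither overlapped, and control mice differed in the same direction, by 0.50 (adjusted p = 0.122) and 0.82 (adjusted p = 0.0134). Higher at ZT21 was *Srsf7*, a serine/arginine-rich splicing factor, at 239.8, 207 and 243 CPM at ZT9 and 374, 375 and 390.3 CPM at ZT21, or 230.0 ± 20.2 CPM at ZT9 and 379.8 ± 9.12 CPM at ZT21 (SD, n = 3). Its difference was −0.73 (SE 0.14, adjusted p = 0.184). *Rbm39*, a splicing cofactor, was at 223, 235 and 238 CPM at ZT9 and 353, 343 and 366 CPM at ZT21, with a difference of −0.61 (SE 0.13, adjusted p = 0.202), and *Rbm5* at 104, 88.4 and 116 CPM at ZT9 and 161, 138 and 144 CPM at ZT21, with a difference of −0.52 (SE 0.16, adjusted p = 0.315). The ZT21 libraries of *Srsf7* and *Rbm39* lay close together and far from ZT9. In control mice the 3 differed by −0.12 (adjusted p = 0.832), −0.21 (adjusted p = 0.647) and less than 0.01 in size for *Rbm5* (adjusted p = 0.997). With median-of-ratios scaling 2 and 4 of the 30 were below 0.05 (5.0% and 5.14% of all genes). Without ZT21 replicate 1 there were 2 and 5 (1.37% and 6.45% of all genes).

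**Figure D3:**
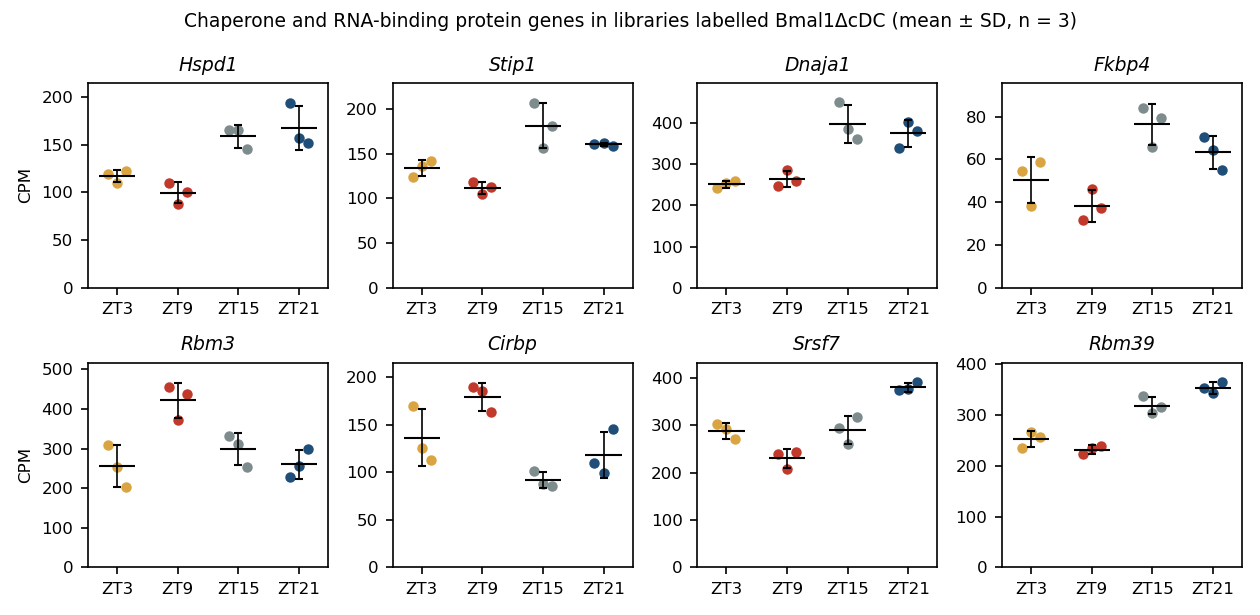
CPM of 4 chaperone genes (*Hspd1*, *Stip1*, *Dnaja1*, *Fkbp4*) and 4 RNA-binding protein genes (*Rbm3*, *Cirbp*, *Srsf7*, *Rbm39*) in the 12 libraries labelled Bmal1ΔcDC by zeitgeber time, with each point a library and the line and bars the mean ± SD (n = 3). ZT9 and ZT21 points do not overlap in any panel, with ZT9 above for *Rbm3* and *Cirbp* and ZT21 above for the other 6.

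Proliferation genes were higher at ZT21 in 8 of 30 members tested at an unadjusted p below 0.05, and in none at ZT9 (8.89% and 2.05% of all genes), with a median difference of −0.26. *Plk1*, a kinase of mitotic entry, was at 3.69, 2.32 and 0.569 CPM at ZT9 and 7.95, 5.295 and 14.02 CPM at ZT21, with a difference of −1.94 (SE 0.51, adjusted p = 0.265). *Bub1*, a spindle checkpoint kinase, was at 1.37, 1.13 and 0 CPM at ZT9 and 8.69, 2.19 and 3.12 CPM at ZT21, with a difference of −1.96 (SE 0.54, adjusted p = 0.286). Both were low, and neither overlapped. The *Bub1* difference without ZT21 replicate 1, its highest library, was −1.44. *Rrm2*, a subunit of ribonucleotide reductase, was at 8.797, 11.1 and 12.3 CPM at ZT9 and 14.5, 27.7 and 23.4 CPM at ZT21, with a difference of −0.96 (SE 0.27, adjusted p = 0.286), *Mcm7*, a helicase subunit, at 44.6, 31.8 and 46.3 CPM at ZT9 and 75.4, 50.2 and 64.05 CPM at ZT21, with a difference of −0.62 (SE 0.20, adjusted p = 0.362), and *Mki67*, the proliferation marker Ki-67, at 12.1, 8.59 and 15.1 CPM at ZT9 and 19.5, 18.5 and 22.3 CPM at ZT21, with a difference of −0.76 (SE 0.26, adjusted p = 0.375). With median-of-ratios scaling the count was 7 (5.14% of all genes), and without ZT21 replicate 1 it was 8 (6.45% of all genes). It was 5 without ZT9 replicate 1, where 825 of all 11963 genes were higher at ZT21.

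Genes of T cell receptor signalling were higher at ZT21 in 9 of 16 members, with a median of −0.59 and none higher at ZT9 (8.89% and 2.05% of all genes). With median-of-ratios scaling 4 of the 16 were higher at ZT21 (5.14% of all genes). *Txk*, a Tec-family kinase, was at 4.75, 5.96 and 6.38 CPM at ZT9 and 9.19, 12.9 and 16.7 CPM at ZT21, with a difference of −1.09 (SE 0.26, adjusted p = 0.226). The adaptor *Lat* was at 26.9, 35.9 and 33.1 CPM at ZT9 and 45.3, 47.5 and 101 CPM at ZT21, with a difference of −0.91 (SE 0.32, adjusted p = 0.387), and *Prkcq*, protein kinase C theta, at 14.3, 6.57 and 18.1 CPM at ZT9 and 29.5, 16.3 and 24.3 CPM at ZT21, with a difference of −0.89 (SE 0.35, adjusted p = 0.416). T cell markers differed in the same direction. Of 9 markers, 3 were higher at ZT21 (8.89% of all genes), and 1 with median-of-ratios scaling (5.14%). The 3 were *Lck* at 78.03, 70.7 and 90.5 CPM at ZT9 and 116, 134 and 190.1 CPM at ZT21 (−0.85, adjusted p = 0.272), *Cd28* at 14.4, 11.3 and 15.3 CPM at ZT9 and 15.3, 22.01 and 46.2 CPM at ZT21 (−0.86, adjusted p = 0.424) and *Cd4* at 48.6, 33.7 and 30.2 CPM at ZT9 and 44.4, 54.1 and 51.2 CPM at ZT21 (−0.43, adjusted p = 0.454). *Cd3e*, the defining marker, was at 70.3, 70.2 and 70.9 CPM at ZT9 and 80.6, 93.8 and 133 CPM at ZT21 (−0.51, adjusted p = 0.456). The summed level of the 9 markers was 426, 418 and 391.8 CPM at ZT9 and 418, 584 and 936 CPM at ZT21. Without ZT21 replicate 1, whose sum lay inside the ZT9 range, 7 of the 9 markers and 9 of the 16 signalling genes were below 0.05. There, 6.45% of all genes were higher at ZT21. Without ZT21 replicate 3 those counts were 1 and 3, and without ZT9 replicate 1 and ZT9 replicate 2 the signalling genes numbered 2 and 3. The part of T cells in these and in the proliferation genes was not tested. In control mice 7 of the 9 markers and 8 of the 16 signalling genes were higher at ZT21 (5.02% of all genes). In sham mice none of either list was higher at ZT21 (1.71% of all genes). There, 1 marker and 2 signalling genes were higher at ZT9 (3.61% of all genes), with medians of 0.23 and 0.33.

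Markers of other cells that the gate could hold were read against the 8.89% of all genes higher at ZT21. With median-of-ratios scaling none of the macrophage or plasmacytoid dendritic cell markers was below 0.05. On leaving out ZT21 replicate 1 the counts were 1 of 7 and 2 of 4 (6.45% of all genes were higher at ZT21). Macrophage markers summed to 838 to 1120 CPM at ZT9 and 1224 to 1894 CPM at ZT21, mostly through *Lyz2*, the macrophage lysozyme, at 746, 774 and 1014 CPM at ZT9 and 1110.2, 1205 and 1731 CPM at ZT21 (−0.66, adjusted p = 0.406), which was 1 of 7 below an unadjusted p of 0.05. The complement genes *C1qc* and *C1qb* had −0.72 (adjusted p = 0.523) and −0.77 (adjusted p = 0.619), and *Adgre1*, which encodes F4/80, had 0.51 (adjusted p = 0.645). Granulocyte markers summed to 0 to 0.550 CPM at ZT9 and 1.06 to 21.998 CPM at ZT21, where *S100a9*, an alarmin of neutrophils, was 1 of 3 below 0.05. It was listed at 0 in all 3 ZT9 libraries and at 11.7, 0.586 and 1.71 CPM at ZT21, and it was not below 0.05 without ZT21 replicate 1 (adjusted p = 0.6797). *S100a8* had adjusted p = 0.466 and *Retnlg* adjusted p = 0.536. Of the plasmacytoid dendritic cell markers 1 of 4 was below 0.05, *Siglech*, at 11.9, 9.96 and 10.7 CPM at ZT9 and 15.6, 16.9 and 29.6 CPM at ZT21 (−0.84, adjusted p = 0.435), beside *Bst2* (−0.21, adjusted p = 0.717), *Ccr9* (0.25, adjusted p = 0.927) and *Tcf4* (−0.05, adjusted p = 0.943), and their sum was 134 to 165 CPM at ZT9 and 153 to 207 CPM at ZT21.

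No marker of B cells (4 tested), NK cells (4), Langerhans cells (2), stroma and endothelium (4), melanoma (1), erythroid cells (1) or keratinocytes (1) was below 0.05. The B cell factor *Pax5* was at 0 in all 6 libraries. The NK receptor *Ncr1* was at 6.72 ± 2.89 against 5.87 ± 4.48 CPM (ZT9 against ZT21, mean ± SD, n = 3). *Epcam* and *Cd207*, the Langerhans cell markers, had −0.20 (adjusted p = 0.707) and 0.03 (adjusted p = 0.973). The melanoma gene *Pmel* was at 0.501 to 1.76 CPM, and *Dct* and *Tyrp1* were at 0 in all 6 libraries. *Col1a1*, *Pecam1*, *Krt10* and *Hbb-bs* had adjusted p of 0.767, 0.883, 0.54002 and 0.943.

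Among dendritic cell markers, none of the 10 genes of conventional and migratory dendritic cells and none of the 8 of cDC1 was below 0.05. Under median-of-ratios scaling 2 of the 10 were higher at ZT9 (5.0% of all genes). Those 10 genes summed to 35973 to 40911 CPM at ZT9 and 31137 to 34948 CPM at ZT21, without overlap, with *Cd74* the largest part. *Zbtb46*, a transcription factor of conventional dendritic cells, was at 119.9, 141 and 135 CPM at ZT9 and 226, 198 and 137 CPM at ZT21 (−0.48, adjusted p = 0.506), and *Itgax*, which encodes CD11c, at 39.6, 30.1 and 46.2 CPM at ZT9 and 66.3, 34.8 and 42.6 CPM at ZT21 (−0.28, adjusted p = 0.723). *Ccl22*, a chemokine for regulatory T cells, was at 5053, 5018 and 6427 CPM at ZT9 and 4986, 4093 and 3976 CPM at ZT21 (0.34, adjusted p = 0.459). The cDC1 genes *Xcr1*, *Wdfy4* and *Itgae* overlapped, with −1.04 (adjusted p = 0.503), −1.24 (adjusted p = 0.496) and −0.44 (adjusted p = 0.777). Of 6 cDC2 genes, 1 was below 0.05 (8.89% of all genes were higher at ZT21), the lectin *Clec10a*, at 2.902, 0.567 and 2.57 CPM at ZT9 and 11.99, 3.24 and 8.28 CPM at ZT21 (−1.73, adjusted p = 0.408), and it was not below 0.05 without ZT21 replicate 1 (adjusted p = 0.701). The count was 3 of 6 without ZT9 replicate 3, ZT15 replicate 2 or ZT21 replicate 2, 2 without ZT15 replicate 3, and 0 without ZT9 replicate 2, ZT21 replicate 1 or ZT21 replicate 3. *Mgl2*, its paralogue, had −1.81, adjusted p = 0.472, *Cd209a* had −1.56, adjusted p = 0.472 and *Sirpa* had −0.22, adjusted p = 0.7903. Values of *Clec10a* and *Mgl2* were not whole reads in 97.7% of libraries, so the reads of these near-identical genes may be split between them.

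*Cd80* and *Cd86* did not reach an unadjusted p of 0.05. *Cd80* was at 9.46, 10.9 and 10.7 CPM at ZT9 and 8.48, 12.3 and 7.07 CPM at ZT21, or 10.4 ± 0.776 CPM at ZT9 and 9.28 ± 2.71 CPM at ZT21 (SD, n = 3), with a difference of 0.18 (SE 0.24, adjusted p = 0.775). *Cd86* was at 181, 167 and 159 CPM at ZT9 and 187, 136 and 146 CPM at ZT21, or 169 ± 11.5 CPM at ZT9 and 156 ± 26.97 CPM at ZT21 (SD, n = 3), with a difference of 0.12 (SE 0.21, adjusted p = 0.8295). The ZT9 and ZT21 libraries overlapped for both. In control mice the differences were 0.25 (adjusted p = 0.5499) and 0.18 (adjusted p = 0.648), and the knockout differences relative to them were −0.07 (SE 0.28, adjusted p = 0.919) and −0.06 (SE 0.26, adjusted p = 0.9196). None of the 15 co-stimulation genes tested was below 0.05 with the deposited scaling. Under median-of-ratios scaling 2 were higher at ZT9 (5.0% of all genes). *Cd40*, the receptor through which T cells license dendritic cells, was at 883, 934 and 903 CPM at ZT9 and 721, 843 and 704 CPM at ZT21 (0.27, adjusted p = 0.487), without overlap. *Tnfsf4*, or OX40L, had −0.88, adjusted p = 0.484, *Cd70* had −0.44, adjusted p = 0.501 and *Pvr* had 0.35, adjusted p = 0.519.

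In antigen presentation, none of 11 MHC class II genes was below 0.05 with the deposited scaling, and their median difference was 0.28. With median-of-ratios scaling 2 were higher at ZT9 (median 0.41), where 5.0% of all genes were. Without ZT15 replicate 2, 2 were, beside 232 of all 11963 genes. *H2-Aa* was at 2183, 2335 and 2453 CPM at ZT9 and 1539.7, 1954 and 1880.4 CPM at ZT21 (0.38, adjusted p = 0.5003), *H2-Eb1* at 1874, 1861 and 2334 CPM at ZT9 and 1385, 1586 and 1452 CPM at ZT21 (0.45, adjusted p = 0.483), and *Cd74*, the invariant chain, at 11705, 11291 and 13957 CPM at ZT9 and 10514, 10098 and 9504 CPM at ZT21 (0.29, adjusted p = 0.6095). In these 3, every ZT9 library lay above every ZT21 library. *H2-DMb2* had 0.45, adjusted p = 0.596. Of 16 genes of MHC class I presentation, *Nlrc5*, their transactivator, was below 0.05, at 88.6, 72.2 and 76.5 CPM at ZT9 and 160.4, 162 and 106 CPM at ZT21, with a difference of −0.83 (SE 0.29, adjusted p = 0.387) (8.89% of all genes were higher at ZT21). None of the 16 was below 0.05 without ZT21 replicate 1. Under median-of-ratios scaling 1 was higher at ZT21 and 2 at ZT9 (5.14% and 5.0% of all genes). *Psme2*, a proteasome activator subunit, had 0.31, adjusted p = 0.501, *Pdia3* had −0.19, adjusted p = 0.584, and the immunoproteasome subunit *Psmb8* had 0.36, adjusted p = 0.456. None of 13 chemokines and none of 13 cytokines of T cell priming was below 0.05. Under median-of-ratios scaling 2 of the chemokines were higher at ZT9 (5.0% of all genes). *Ccl5* was at 8869, 10769.9 and 7061 CPM at ZT9 and 4115, 6764 and 7805 CPM at ZT21 (0.54, adjusted p = 0.458), *Cxcl9* had −0.62, adjusted p = 0.519 and *Ccl2* had −0.82, adjusted p = 0.688. *Il12a*, a subunit of IL-12, was at 0.636, 0 and 0 CPM at ZT9 and 1.97, 0.2704 and 1.71 CPM at ZT21 (−1.298, adjusted p = 0.466), *Il1b* at 240.5, 169 and 245 CPM at ZT9 and 266, 249 and 314 CPM at ZT21 (−0.35, adjusted p = 0.625) and *Tnf* at 78.8, 72.4 and 79.03 CPM at ZT9 and 69.1, 66.6 and 54.5 CPM at ZT21 (0.28, adjusted p = 0.645), and *Tgfb1* had −0.47, adjusted p = 0.483.

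None of the 13 genes of Toll-like receptor signalling, 13 of NF-kB or 11 glucocorticoid targets was below 0.05. *Tlr7* had −0.96, adjusted p = 0.477, the adaptor *Ticam1* −0.47, adjusted p = 0.491, *Tlr2* −0.44, adjusted p = 0.589 and *Irak4* 0.22, adjusted p = 0.628. *Nfkbid*, an inhibitor-like cofactor of NF-kB, had −0.46, adjusted p = 0.467, *Nfkb1* −0.38, adjusted p = 0.54002, *Tnfaip3* −0.34, adjusted p = 0.558 and *Nfkbiz* −0.30, adjusted p = 0.611. *Nr3c1*, the glucocorticoid receptor, had −0.14, adjusted p = 0.761, and its targets *Dusp1*, *Zbtb16* and *Fkbp5* had adjusted p of 0.674, 0.786 and 0.794. Immediate early genes were higher at ZT21 in 4 of 17 members and higher at ZT9 in none (8.89% and 2.05% of all genes), with a median of −0.36. *Nr4a1*, a nuclear receptor induced within minutes of stimulation, was at 143, 165 and 219 CPM at ZT9 and 390.3, 277 and 322 CPM at ZT21, or 175 ± 39.02 CPM at ZT9 and 329.8 ± 57.03 CPM at ZT21 (SD, n = 3), with a difference of −0.92 (SE 0.22, adjusted p = 0.226) and no overlap. *Fosb* was at 35.4, 61.3 and 62.8 CPM at ZT9 and 79.4, 70.1 and 71.1 CPM at ZT21 (−0.51, adjusted p = 0.444), *Nr4a2* at 36.8, 22.9 and 33.98 CPM at ZT9 and 46.3, 39.4 and 48.7 CPM at ZT21 (−0.54, adjusted p = 0.4498) and *Egr3* at 0.941, 3.21 and 8.04 CPM at ZT9 and 6.33, 6.04 and 10.2 CPM at ZT21 (−1.13, adjusted p = 0.455). With median-of-ratios scaling, and also without ZT21 replicate 1, 1 of the 17 was higher at ZT21 (5.14% and 6.45% of all genes).

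Interferon-stimulated genes were higher at ZT21 in 3 of 24 members and higher at ZT9 in 1, shares near those of all genes (8.89% and 2.05%). With median-of-ratios scaling there was 1 in each direction (5.14% and 5.0% of all genes). *Rtp4* was at 3.43, 3.88 and 3.27 CPM at ZT9 and 6.33, 10.05 and 9.97 CPM at ZT21, with a difference of −1.18 (SE 0.38, adjusted p = 0.364), and *Irf7*, the factor that amplifies type I interferon, at 15.7, 15.1 and 9.89 CPM at ZT9 and 24.3, 23.8 and 23.2 CPM at ZT21, with a difference of −0.82 (SE 0.33, adjusted p = 0.424). Neither overlapped, while *Oasl2*, which was higher at ZT9, was at 12.8, 6.63 and 10.1 CPM at ZT9 and 2.03, 6.85 and 2.52 CPM at ZT21, with a difference of 1.39 (SE 0.52, adjusted p = 0.406), and overlapped. Without ZT21 replicate 1, 1 of the 24 was below 0.05 and higher at ZT21 (6.45% of all genes).

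In adhesion and migration, 5 of 23 integrin and adhesion genes were higher at ZT21 (8.89% of all genes). *Itgal*, the alpha chain of LFA-1, was at 31.3, 34.3 and 36.2 CPM at ZT9 and 84.8, 59.5 and 69.2 CPM at ZT21, with a difference of −1.04 (SE 0.32, adjusted p = 0.332). It did not overlap, and it is also expressed by T cells. *Itgb5* was at 12.2, 39.3 and 27.5 CPM at ZT9 and 47.5, 52.05 and 40.3 CPM at ZT21 (−0.95, adjusted p = 0.436), and *Itgb7* had −0.64, adjusted p = 0.416. With median-of-ratios scaling 1 of the 23 was higher at ZT21 and 1 at ZT9 (5.14% and 5.0% of all genes). On leaving out ZT21 replicate 1 there were 4 and 1 (6.45% and 1.37% of all genes). Without ZT9 replicate 1 or ZT9 replicate 2 the count at ZT21 was 2, and it was 3 without any 1 ZT3 library, ZT21 replicate 2 or ZT21 replicate 3. Of 11 chemokine receptors, 2 were higher at ZT21 and 1 at ZT9 (8.89% and 2.05% of all genes). With median-of-ratios scaling there was 1 in each direction (5.14% and 5.0% of all genes). On leaving out ZT21 replicate 1 there was 1 higher at ZT21 and none at ZT9 (6.45% and 1.37% of all genes). *Ccr4* was at 1.25, 0.795 and 0.1898 CPM at ZT9 and 4.59, 2.61 and 2.99 CPM at ZT21, with a difference of −1.72 (SE 0.37, adjusted p = 0.206) and no overlap, *Ccr2* at 10.7, 16.6 and 21.9 CPM at ZT9 and 50.1, 20.4 and 45.6 CPM at ZT21 (−1.17, adjusted p = 0.429) and *Cxcr5*, higher at ZT9, at 6.33, 3.88 and 8.02 CPM at ZT9 and 1.21, 6.76 and 0.405 CPM at ZT21 (1.502, adjusted p = 0.444). *Ccr7*, which guides dendritic cells to the lymph node, was at 6822, 6093 and 5794 CPM at ZT9 and 5856, 6449 and 5243 CPM at ZT21 (0.09, adjusted p = 0.8299).

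Of 19 genes of mTOR and AKT signalling, 2 were higher at ZT21 and none at ZT9, a share near the 8.89% of all genes higher at ZT21, with a median of −0.39. The count was 2 without ZT21 replicate 1 (6.45% of all genes). It was 4 without ZT9 replicate 3 or ZT21 replicate 3, and 3 without ZT15 replicate 2 or ZT21 replicate 2. *Pik3cd*, the leukocyte PI3-kinase delta, was at 25.6, 20.9 and 30.4 CPM at ZT9 and 78.98, 39.3 and 75.3 CPM at ZT21, with a difference of −1.27 (SE 0.33, adjusted p = 0.265). *Mtor* was at 18.8, 11.8 and 16.3 CPM at ZT9 and 29.1, 24.7 and 26.1 CPM at ZT21, with a difference of −0.77 (SE 0.30, adjusted p = 0.416), and did not overlap either. *Tsc2* had −0.42, adjusted p = 0.474 and *Rictor* −0.40, adjusted p = 0.477. Of 17 glycolysis genes, 1 was below 0.05, a share under the 8.89% of all genes higher at ZT21, and none was with median-of-ratios scaling. This was *Pfkp*, a phosphofructokinase, at 57.4, 54.4 and 67.9 CPM at ZT9 and 79.98, 87.1 and 91.4 CPM at ZT21 (−0.52, adjusted p = 0.379), beside *Slc2a3* (−0.88, adjusted p = 0.534), *Pgam1* (−0.32, adjusted p = 0.5895) and *Pfkl* (−0.31, adjusted p = 0.616). None of 25 lysosome genes and none of 21 autophagy genes was below 0.05. Under median-of-ratios scaling 1 and 2 were higher at ZT9 (5.0% of all genes). *Ctsh*, a cathepsin, was at 1409.9, 1361 and 1361 CPM at ZT9 and 1172, 1236 and 1105 CPM at ZT21 (0.24, adjusted p = 0.489), and *Atp6v1f*, *Lamp2* and *Ctse* had adjusted p of 0.616, 0.625 and 0.635. *Gabarap*, an autophagosome protein, was at 596, 722 and 578 CPM at ZT9 and 370.2, 527 and 570.0 CPM at ZT21 (0.39, adjusted p = 0.467), and *Pik3c3*, *Map1lc3a* and *Atg7* had adjusted p of 0.459, 0.491 and 0.5197.

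Of 83 cytosolic ribosomal protein genes tested, 14 were higher at ZT9 at an unadjusted p below 0.05 and none at ZT21 (2.05% and 8.89% of all genes), with a median difference of 0.57. With median-of-ratios scaling 44 were higher at ZT9 (5.0% of all genes). Without ZT21 replicate 3, the highest ZT21 library, 78 were below 0.05, where 615 of all 11963 genes were higher at ZT9. Without any 1 ZT3 library 7 were, and without ZT9 replicate 1 or ZT9 replicate 2 none was. None was below 0.05 without ZT21 replicate 1, where the median was 0.18. *Rpsa* was at 1018, 1009 and 921 CPM at ZT9 and 432, 767 and 819 CPM at ZT21, with a difference of 0.60 (SE 0.23, adjusted p = 0.416), and *Rps28* at 135, 145 and 119 CPM at ZT9 and 47.9, 93.9 and 112 CPM at ZT21, with a difference of 0.73 (SE 0.28, adjusted p = 0.409). *Rps14* and *Rpl27a* had 0.86 (adjusted p = 0.413) and 0.81 (adjusted p = 0.423). For all 4, ZT21 replicate 1 was far below the other 5 libraries, and the remaining ZT21 libraries also lay below ZT9. Averaged over the 83 members the libraries stood at 0.25, 0.39 and 0.18 at ZT9 and −1.04, −0.09 and 0.32 at ZT21 in log2 units, so that ZT21 replicate 3 lay inside the ZT9 range. In control mice 8 members were higher at ZT21 and none at ZT9 (5.02% and 6.44% of all genes), with a median of −0.25.

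ZT21 replicate 1 was also lowest for oxidative phosphorylation, where 1 of 78 members was higher at ZT9, *Cox5b*, at 214, 257 and 214 CPM at ZT9 and 124, 186 and 204 CPM at ZT21 (0.44, adjusted p = 0.455), and 1 higher at ZT21, *Cox4i2*, at 0.305, 0.245 and 0.427 CPM at ZT9 and 1.15, 1.22 and 0.498 CPM at ZT21 (−0.78, adjusted p = 0.438), shares under those of all genes (2.05% and 8.89%). *Cox5a* had 0.41, adjusted p = 0.455 and *Atp5g1* 0.58, adjusted p = 0.458. The median over the 78 was 0.29, and 0.03 without ZT21 replicate 1, where none was below 0.05. With median-of-ratios scaling 13 were higher at ZT9 (5.0% of all genes), and without ZT21 replicate 3 the count was larger still, as given below. Of 38 proteasome genes, *Psma8*, a testis-type subunit near the floor, was below 0.05, at 0.941, 1.25 and 2.75 CPM at ZT9 and 0, 0.428 and 0 CPM at ZT21 (1.72, adjusted p = 0.355). That 1 of 38 was near the 2.05% of all genes higher at ZT9. With median-of-ratios scaling 6 of the 38 were higher at ZT9 (5.0% of all genes), and without ZT21 replicate 3, 5 were (615 of all 11963 genes). The core subunits *Psmb4* and *Psmb6* had 0.35, adjusted p = 0.466 and 0.38, adjusted p = 0.498. None of 76 mitochondrial ribosomal protein genes was below 0.05 with the deposited scaling. With median-of-ratios scaling 7 were higher at ZT9 (5.0% of all genes), and 17 were without ZT21 replicate 3 (615 of all 11963 genes). Values included *Mrpl14* at 0.54, adjusted p = 0.456, *Mrps6* at 0.35, adjusted p = 0.456, *Mrpl54* at 0.48, adjusted p = 0.4603 and *Mrpl13* at 0.52, adjusted p = 0.461.

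Small lists gained or lost members below 0.05 when other single libraries were left out. The counts over all 11963 genes moved too, from 692 to 1188 higher at ZT21 and from 164 to 615 higher at ZT9. Every list count under a leave-out stands beside those ranges, and whether a list moved apart from all genes was not tested. Of the 24 interferon-stimulated genes, the count higher at ZT21 was 1 without ZT9 replicate 3 or ZT21 replicate 2 and 4 without ZT21 replicate 3. Immediate early genes were higher at ZT21 in 1 without ZT3 replicate 2 or ZT15 replicate 1 (988 of all 11963 genes in each). They were in 2 without ZT3 replicate 1, ZT3 replicate 3, ZT9 replicate 2, ZT15 replicate 3 or ZT21 replicate 2. The count was 5 without ZT9 replicate 3, where 1133 of all genes were higher at ZT21. Chemokine receptors higher at ZT21 ranged from 1 to 3 over the leave-outs and those higher at ZT9 from 0 to 1. The fatty acid list ranged from 0 to 3, macrophage markers from 0 to 3, plasmacytoid dendritic cell markers from 0 to 2, granulocyte markers from 1 to 2, and glycolysis and sterol efflux from 1 to 2, all higher at ZT21. Lists with none below 0.05 had at most 2 in either direction in any leave-out, apart from the mitochondrial ribosomal proteins. Oxidative phosphorylation genes higher at ZT9 numbered 40 without ZT21 replicate 3, where 615 of all 11963 genes were higher at ZT9. Among genes named as below 0.05, *Ccr2*, *Cxcr5*, *Fosb*, *Nr4a2*, *Egr3*, *Oasl2*, *Irf7*, *Mtor*, *Prkcq*, *Itgb5*, *Itgb7* and *Cox4i2* were also not below it without ZT21 replicate 1.

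**Figure D4:**
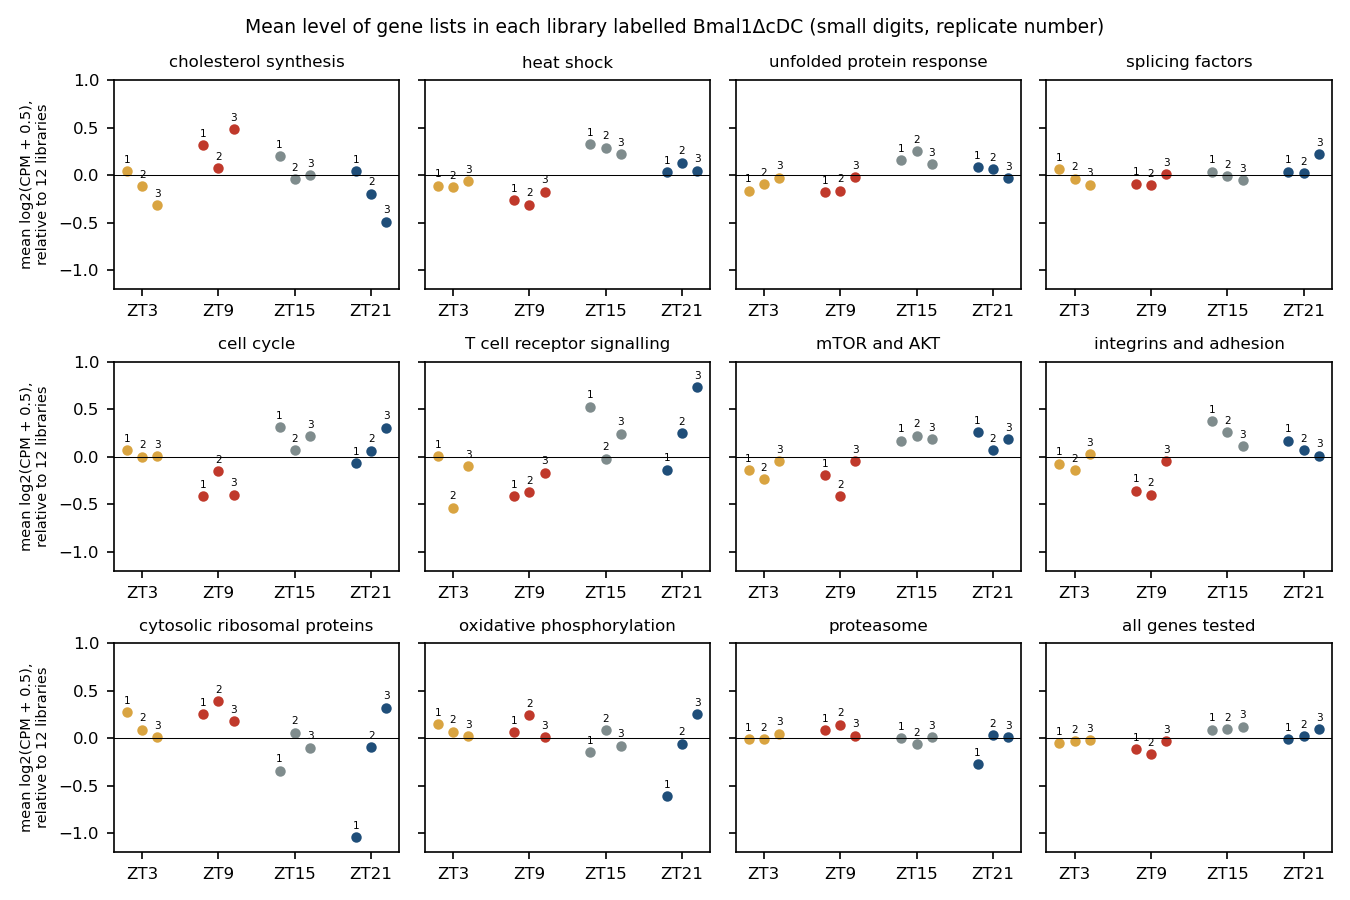
Mean log2(CPM + 0.5) of gene lists, and of all genes tested, in the 12 libraries labelled Bmal1ΔcDC by zeitgeber time. Values are relative to the mean of those 12 libraries, and the small digit above each point is the replicate number. ZT9 lies above ZT21 without overlap for cholesterol synthesis. ZT21 lies above ZT9 for heat shock, splicing factors, cell cycle, T cell receptor signalling, mTOR and AKT, and integrins and adhesion. For cytosolic ribosomal proteins ZT21 replicate 1 lies alone at −1.04 and ZT21 replicate 3 is at 0.32. Means over all genes tested also separate, at −0.17 to −0.03 at ZT9 and −0.008 to 0.098 at ZT21.

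Differences also varied with transcript length. In 5 equal groups of genes by their longest transcript, the median log2 difference was 0.055 in the shortest and −0.095, −0.15, −0.22 and −0.20 in the groups of increasing length. The medians without ZT21 replicate 1 were −0.061, −0.112, −0.137, −0.155 and −0.140. In control mice they ran the other way, from −0.107 in the shortest to 0.140 in the longest. Ribosomal proteins and respiratory chain subunits are encoded by short transcripts, and the part of length in the list differences was not tested.

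The difference of ZT9 and ZT21 was compared between genotypes by an interaction term over the 32 libraries of tumour-injected mice. Depth did not overlap between the genotypes, at 20088012 to 28962671 reads on genes in control libraries and 29406729 to 55799162 in knockout libraries. The part of depth in the differences between genotypes was not tested. At an adjusted p below 0.05 there were 4 genes (0.0334%), all with a lower value for the knockout: *Napb*, *Cfap43*, *Myo7a* and *Ccdc30*. The number was 28 without knockout ZT9 replicate 3, 9 without knockout ZT9 replicate 1, 25 without knockout ZT21 replicate 2 and 16 without knockout ZT21 replicate 3, and 25 and 7 without control ZT3 replicate 3 and ZT9 replicate 3. At an unadjusted p below 0.05 there were 1981 (16.6%), of which 593 lay above the control difference (4.96%) and 1388 below it (11.6%). These were 193 and 864 without ZT21 replicate 1, and with median-of-ratios scaling 1136 and 786. *Napb*, a protein that recycles SNARE complexes, was at 0, 0.0611 and 0 CPM at ZT9 and 4.03, 2.095 and 6.07 CPM at ZT21, and its control libraries at 1.52 to 5.94 CPM at ZT9 and 0.346 to 2.49 CPM at ZT21. The interaction was −4.05 (SE 0.67, adjusted p = 0.00805). *Cfap43* had −3.04 (SE 0.45, adjusted p = 0.00437), with control libraries at 1.18 to 3.11 CPM at ZT9 and 1.33 to 2.29 CPM at ZT21. *Myo7a*, an unconventional myosin, was at 0.534, 0 and 0 CPM at ZT9 and 5.62, 1.94 and 4.77 CPM at ZT21, with −3.28 (SE 0.54, adjusted p = 0.00805). *Ccdc30* was at 0.381, 0 and 0 CPM at ZT9 and 2.12, 1.24 and 1.56 CPM at ZT21, with −2.24 (SE 0.42, adjusted p = 0.0338). All 4 are low transcripts that were at or below 0.534 CPM at ZT9 and at 1.24 to 6.07 CPM at ZT21 in the knockout libraries.

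The next 4 genes by p, which did not pass the adjusted threshold, were *Pram1*, *Cluh*, *Serpinb1b* and *Pi4k2b*. *Pram1*, an adaptor of myeloid cells, had −3.47 (SE 0.69, adjusted p = 0.0578). *Cluh*, which binds mRNAs of mitochondrial proteins, was at 11.2, 9.08 and 8.33 CPM at ZT9 and 36.7, 23.7 and 20.2 CPM at ZT21, with −2.21 (SE 0.44, adjusted p = 0.0578). *Pi4k2b*, a phosphatidylinositol 4-kinase, was at 28.5, 16.7 and 21.02 CPM at ZT9 and 46.9, 37.1 and 32.8 CPM at ZT21, with −1.36 (adjusted p = 0.0797), and *Serpinb1b* had 1.35 (adjusted p = 0.0723). In control mice *Cluh* and *Pi4k2b* differed in the other direction, by 0.80 (adjusted p = 0.206) and 0.54 (adjusted p = 0.206).

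By list, the knockout difference lay below the control difference at an unadjusted p below 0.05 in 7 of 19 mTOR and AKT genes and above it in none, beside 11.6% and 4.96% of all genes. With median-of-ratios scaling 4 of the 19 lay below and 2 above (6.57% and 9.50% of all genes), and without ZT21 replicate 1 there were 2 below and none above (7.22% and 1.61% of all genes). *Mtor* had an interaction of −1.38 (adjusted p = 0.1696), with 0.60 in control mice, and *Rictor* had −0.63 (adjusted p = 0.198). In fatty acid synthesis *Fasn* had −1.51 (adjusted p = 0.1803) and *Srebf1* −0.68 (adjusted p = 0.202). Cell cycle genes lay below in 8 of 30 and above in 1, in 5 and none without ZT21 replicate 1, and in 3 and 1 with median-of-ratios scaling. Cytosolic ribosomal protein genes lay above in 76 of 83, in 81 with median-of-ratios scaling and in 11 without ZT21 replicate 1. For mitochondrial ribosomal proteins the count above was 19 of 76, 32 with median-of-ratios scaling and 1 without that library, and for oxidative phosphorylation it was 32 of 78, 47 and 1. The heat shock list had 3 of 29 below and 1 above. It had 1 below and 5 above with median-of-ratios scaling, and 2 below and none above without ZT21 replicate 1, so its balance turned with the scaling. With the deposited scaling, *Hsp90ab1* had 0.16 (adjusted p = 0.536) and *Stip1* −0.14 (adjusted p = 0.696). None of these members passed the adjusted threshold. The comparison does not show that the genotypes respond alike where a test misses the threshold: for *Mvk* the interaction of 0.52 had an SE of 0.26 (adjusted p = 0.315), and for *Arntl* −0.72 had an SE of 0.34 (adjusted p = 0.289).

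**Figure D5:**
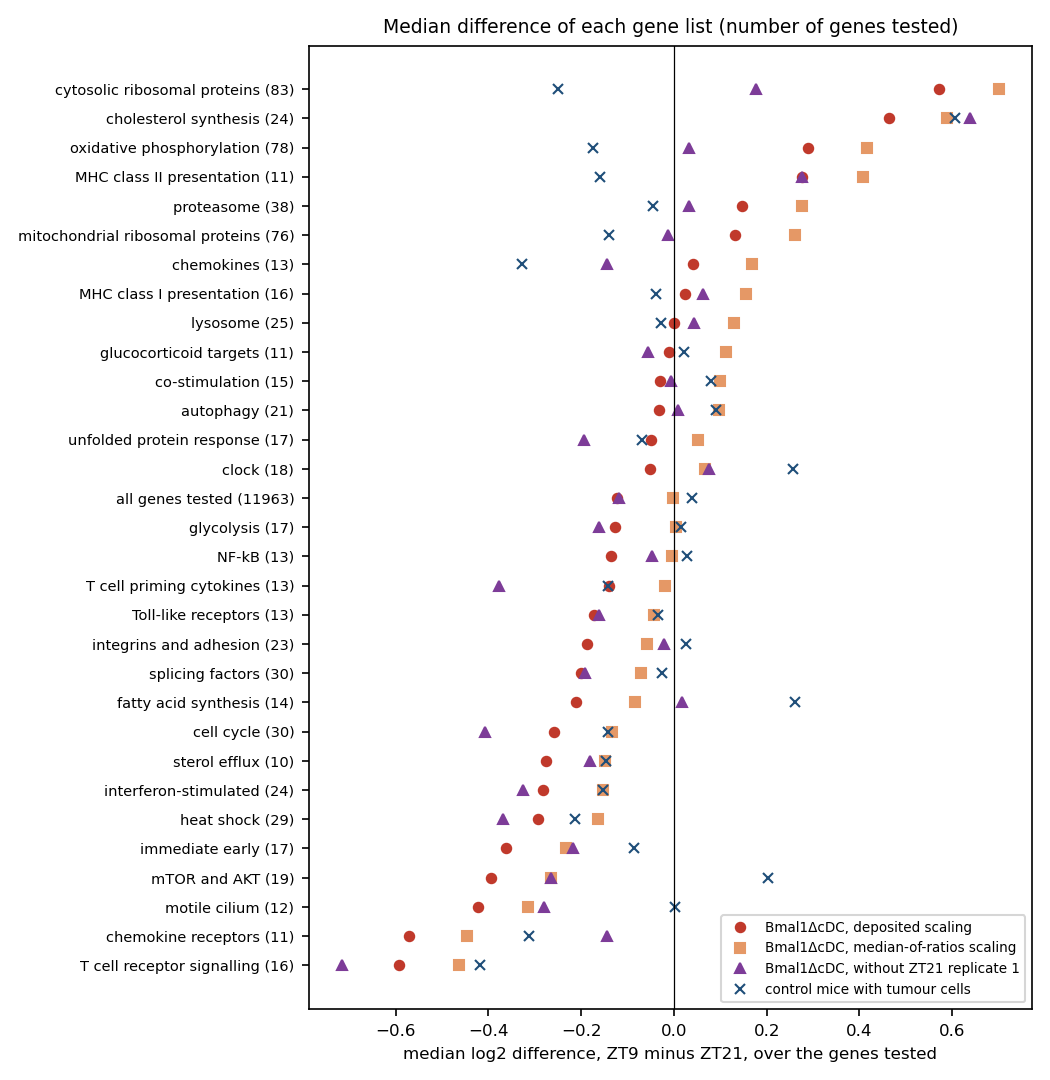
Median ZT9 minus ZT21 difference on the log2(CPM + 0.5) scale over the tested genes of each list, in libraries labelled Bmal1ΔcDC with the deposited scaling (circles), with median-of-ratios scaling (squares) and without ZT21 replicate 1 (triangles), and in control mice (crosses). Cholesterol synthesis lies above 0 in all 4, at 0.46, 0.59, 0.64 and 0.61, while cytosolic ribosomal proteins go from 0.57 to 0.18 without that library and are at −0.25 in control mice.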

How the data were processed

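RNA of CD45+CD11c+MHCIIhigh cells from single mice was amplified, sequenced as 50-base single reads, aligned with STAR 2.7.0 to mm10 and counted per gene with HTSeq 0.9.1, per the labels and the methods of the study. The authors deposited 1 table of CPM (counts per gene scaled to a library total of 1000000 reads on genes) for 14699 genes in 44 libraries, and all its columns matched a label. The table keeps depth, because low values step in units of 1 read: 86.2 to 87.4% of values in the 6 libraries came out as whole reads within 0.001. Since 1392 tested genes were fractional (by over 0.01 read) in most libraries, no count test was run.

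The 11963 genes that reached 1 CPM in 5 or more of the 44 columns were fitted as log2(CPM + 0.5) with limma 3.58.1 in R 4.3.3, with timepoint means over the 12 libraries labelled Bmal1ΔcDC, or genotype-by-timepoint means over the 32 libraries of tumour-injected mice for the difference between genotypes. Control and sham mice were fitted the same way on their own libraries. Python 3.11.15, numpy 2.4.6, pandas 2.3.3 and matplotlib 3.10.9 made the tables and figures. The procedure was tested on simulated data.

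The 44 gene lists, the thresholds and the choice of genes were made with earlier results of these data known. Named were *Arntl*, the clock list, *Cd80* and *Cd86*, genes past both thresholds, the 12 genes in each direction with the largest difference under the criteria given in the text, up to 4 members of each list with the smallest p, and the 8 genes with the smallest p between genotypes. Chosen after their values were seen were *Sc5d*, *Insig1*, *Msmo1*, *Mvd*, *Fdft1*, *Sqle*, *Hmgcs1*, *Srebf2*, *Hsp90ab1*, *Hspa8*, *Hsf1*, *Hspe1*, *Dnajb1*, *Cirbp*, *Mki67*, *Ccr7*, *Fscn1*, *Itgax* and *Gm4724*, and the genes with a motif. Some genes these rules choose are not reported here. Members below 1 CPM in too many libraries were not tested, and list sizes are the members tested. Alternatives covered the pseudocount, scaling, the filter on low values, the libraries fitted, an intensity trend, array weights, a replicate block and each library left out. Each mouse is a replicate, and which of the study's experiments a mouse belonged to is not in the labels, so no batch was fitted. Coordinates and 300-base promoters are from RefSeq on GRCm38.p6, the assembly of mm10.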

Additional observations from a re-analysis of the deposited data

Results flagged for a closer look

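For 4 genes the ZT9 minus ZT21 difference differed between Bmal1ΔcDC and control mice by the interaction test (limma, adjusted over all genes tested), and all 4 were transcripts of few CPM. *Napb* had a difference of −4.05 on the log2(CPM + 0.5) scale (adjusted p = 0.00805), with 0, 0.0611 and 0 CPM at ZT9 and 4.03, 2.095 and 6.07 CPM at ZT21 in the knockout libraries. Its control libraries held 2.08, 2.25, 3.08, 1.52 and 5.94 CPM at ZT9 and 1.24, 2.49, 0.398, 1.96 and 0.346 CPM at ZT21. *Cfap43* had −3.04 (adjusted p = 0.00437), with 1.89, 1.72, 3.11, 2.30 and 1.18 CPM at ZT9 and 1.33, 2.29, 1.69, 1.35 and 1.77 CPM at ZT21 in control libraries. For both, the adjusted p stayed below 0.05 whichever 1 of the 32 libraries was left out. *Myo7a* had −3.28 (adjusted p = 0.00805, below 0.05 in 31 of 32 leave-outs and 0.0584 without knockout ZT21 replicate 1). *Ccdc30* had −2.24 (adjusted p = 0.0338, below 0.05 in 23 of 32 leave-outs and up to 0.172 without knockout ZT21 replicate 1). Control libraries of *Ccdc30* held 0.164 to 1.18 CPM at ZT9 and 0.133 to 0.649 CPM at ZT21. No sample of the 5-library control groups stood apart from its group for the genes named under the gap criterion of 0.71.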

How the results depend on the processing

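Genes past both thresholds numbered 1 with the deposited scaling, 2 with a pseudocount of 0.1, 0 with a mean of at least 10 CPM, 0 with only ZT9 and ZT21 libraries, 33 over all 44 libraries, 0 with an intensity trend, 44 with array weights, 0 with the replicate block, and 0 to 3 when libraries were left out in turn. Genes higher at ZT9 at an unadjusted p below 0.05 (245) numbered 598 with median-of-ratios scaling, 572 with upper-quartile scaling, 158 with only ZT9 and ZT21 libraries, 631 over all 44, 602 with array weights and 164 to 615 over the leave-outs. Genes higher at ZT21 (1063) numbered 615, 618 and 1647 with median-of-ratios scaling, upper-quartile scaling and array weights, and 692 to 1188 over the leave-outs. Genes that differed between genotypes (4) numbered 0 with a mean of at least 10 CPM, 7 with only ZT9 and ZT21 libraries, 802 with array weights and 3 to 28 over the leave-outs. With the replicate block the counts in each direction were 230 and 1032, and 4 genes differed between genotypes. Replicate numbers are shared between timepoints only as numbers: deviations of same-numbered ZT9 and ZT21 libraries correlated at 0.009, 0.038 and −0.019. *Per1* turned from −0.01 to 0.62 with array weights, and *Ccr9*, at 0.25, ranged from −1.05 without ZT21 replicate 1 to 1.04 without ZT21 replicate 3. Of the other alternatives for single genes, 4477 kept their call, 298 lost it and 266 newly passed an unadjusted p of 0.05. A further 24 differences that passed it under neither setting moved by more than the spread between replicates. The call was an unadjusted p below 0.05, except for *Cfap43*, where it was both thresholds. List medians stayed within their spread in 648 alternatives and moved further in 56. The cause was not tested. With 3 mice per timepoint the differences are imprecise, and precision was not compared between transcripts of few and of many CPM.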
